A study of Mus musculus with 4 samples.

Results

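Windows around the transcription start sites of 2527 mouse genes with recently issued Ensembl numbers were examined for reads from chromatin of regulatory T cells (Tregs) with and without KAP1. The windows are those whose number, the digits after ENSMUSG, is at least 94000 and below 97000. They make up 4.94% of the 51121 windows counted. New numbers are broadly given out as genes are added to the annotation. This range was taken as a proxy for multicopy gene families, antigen receptor variable segments and duplicated loci. The identifiers are not paired with gene names here, so the class of each gene was not tested and windows are called by identifier. The 17863 windows with numbers below 64000, taken as mostly protein-coding genes by the same proxy, served as the comparison set and are called the early identifiers. The remaining 30731 windows, with higher numbers outside the range, are called the other later identifiers.

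H3K9me3, trimethylated lysine of the histone H3 tail, is a mark of silenced chromatin and is dense over repeated DNA. KAP1 (TRIM28) binds no DNA itself and is guided by KRAB zinc finger proteins, many of which recognise retroelements. It recruits the methyltransferase SETDB1, which places the mark. Genes in recently duplicated families often lie beside such repeats and share most of their sequence with their copies. A short read from such a family can match several places in the genome equally well.

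The cells were sorted from spleens of C57BL/6 mice. Both genotypes carry Foxp3-cre, a recombinase driven from the locus of the transcription factor that defines Tregs, so deletion is directed to cells that express Foxp3. One carries wild-type Kap1 (KAP1+/+) and the other floxed Kap1 (KAP1f/f), named below as KAP1-sufficient and KAP1-deficient libraries. The labels describe an anti-H3K9me3 immunoprecipitate and an input of each genotype, 4 libraries in all; the labels state no age, sex or number of mice. The table has 1 column per genotype. Its headings name no antibody, so they are taken as H3K9me3 from the design text alone, and no column was analysed as input. Neither the Treg identity of the cells nor the loss of KAP1 can be checked from these counts.

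Over all windows 480326 KAP1-sufficient and 228009 KAP1-deficient reads were counted, a 2.11-fold difference in depth. With 1 library per genotype there is no spread between replicates and no test of genotype. The 95% intervals of reads and ratios below cover counting error and compare these libraries. Those of shares of windows treat each window as an independent draw and give no spread between libraries. Windows that lie close together may share reads, which makes both kinds of interval too narrow.

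Most windows of the range were empty. No read from either library fell in 1359 of 2527, or 53.8% (exact interval 51.8 to 55.7), against 418 of 17863, or 2.34% (2.12 to 2.57), of the early identifiers. In the other later identifiers the share was 14.2% (13.8 to 14.6). With 4.94% of all windows, the range thus held 22.1% of the 6147 empty ones. At 0 reads, the one-sided upper limit is 3 reads for a window in a library. Whether reads could be counted at all in these windows was not tested, and they are not shown to lack H3K9me3.

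The empty windows were largely the same in both libraries. In the KAP1-sufficient library 1413 windows of the range (55.9%) were at 0, and in the KAP1-deficient library 1546 (61.2%). Of the 1168 windows with a read, 927 had reads in both libraries. A further 187 had reads in the KAP1-sufficient library alone and 54 in the KAP1-deficient library alone. In the range, the gap between the libraries was about that given by thinning to equal depth. Thinned to the KAP1-deficient total, the KAP1-sufficient library would have 60.8% of these windows at 0, beside the 61.2% observed. The other later identifiers had 18.7% by this calculation, beside 18.9% observed, so the match was not particular to the range. In the early identifiers the same calculation gave 4.20%, beside 5.41% (5.08 to 5.75) observed in the KAP1-deficient library. There the gap was larger than thinning gave.

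The high share of empty windows set in and ended close to the limits of the range. Those limits were chosen with earlier results of these data known, so the match is a description and not an independent result. In runs of 1000 numbers it was 54.5% (interval 51.1 to 57.9) for 94000 to 94999, 55.1% (51.7 to 58.5) for 95000 to 95999 and 51.7% (48.3 to 55.1) from 96000 on. These intervals overlap. The run just before, starting at 93000, had 21.6% of its windows empty, and the run just after, starting at 97000, had 13.4%. Over the 110 runs outside the range the median was 4.17%.

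Empty windows were not particular to this range of numbers. Of all 113 runs of 1000, 4 had at least 50% empty windows: the 3 runs of the range and the run starting at 101000, with 54.5%. The runs starting at 99000 and 100000 had 38.3% and 49.6%. The identifiers from 99000 to below 102000, singled out after their values were seen, held 1359 empty windows of 2861, or 47.5% (45.7 to 49.3). Their count of empty windows equals that of the range, over a larger total.

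**Figure D1:**
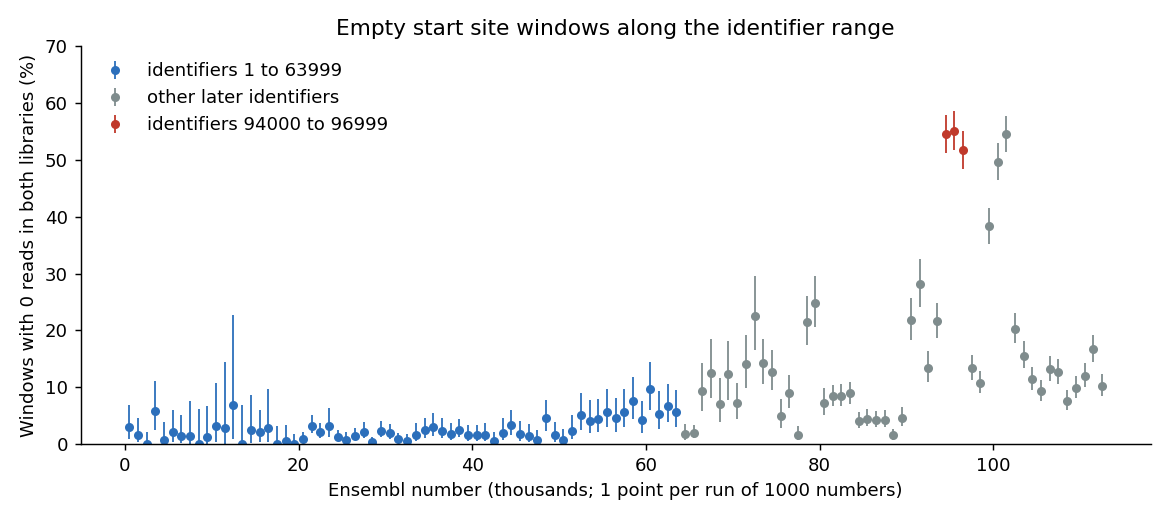
Share of start site windows with 0 reads in both libraries (y axis, percent) by Ensembl number (x axis, number divided by 1000), 1 point per run of 1000 numbers with its exact 95% binomial interval. The 3 runs of the range lie between 51.7% and 55.1%, and a second group of high runs starts at 99000.

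Within the range, the empty share varied moderately. Over the 12 runs of 250 numbers it lay between 43.1% (36.5 to 49.9), from 96750 on, and 60.3% (53.5 to 66.8), for 95500 to 95749. The former run also had the most reads per window once ENSMUSG00000095280 was set aside, with a mean of 5.21 KAP1-sufficient and 2.57 KAP1-deficient reads. The lowest of them is far above the 2.34% of the comparison set.

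Read density was low in these windows even after the empty ones were set aside. All 2527 windows held 8659 KAP1-sufficient reads, a mean of 3.43 per window (Poisson interval 3.35 to 3.50) and a median of 0. They held 4502 KAP1-deficient reads, a mean of 1.78 (1.73 to 1.83) and a median of 0. The early identifiers had means of 11.99 (11.94 to 12.04) and 5.39 (5.36 to 5.42), with medians of 12 and 5. The range thus had 28.6% of the reads per window of the comparison set in the KAP1-sufficient library and 33.1% in the KAP1-deficient one.

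Among the 1168 windows with at least 1 read, the medians were 6 and 3 reads, with quartiles of 3 and 10 KAP1-sufficient and of 1 and 5 KAP1-deficient reads. The 17445 such windows of the comparison set had medians of 12 and 5, with quartiles of 8 and 16 and of 3 and 7.

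Many windows of the range were sparsely covered and not empty. A total of 1 to 4 reads over both libraries was found in 319 windows, 27.3% of those with a read. The share was 3.11% in the early identifiers and 8.68% in the other later identifiers. The identifiers from 99000 to below 102000, with 47.5% of windows empty against 53.8% in the range, had 9.92% in this class. At the other end, 583 windows of the range (23.1% of all its windows) reached 10 reads or more over both libraries, against 84.8% of the early identifiers.

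**Figure D2:**
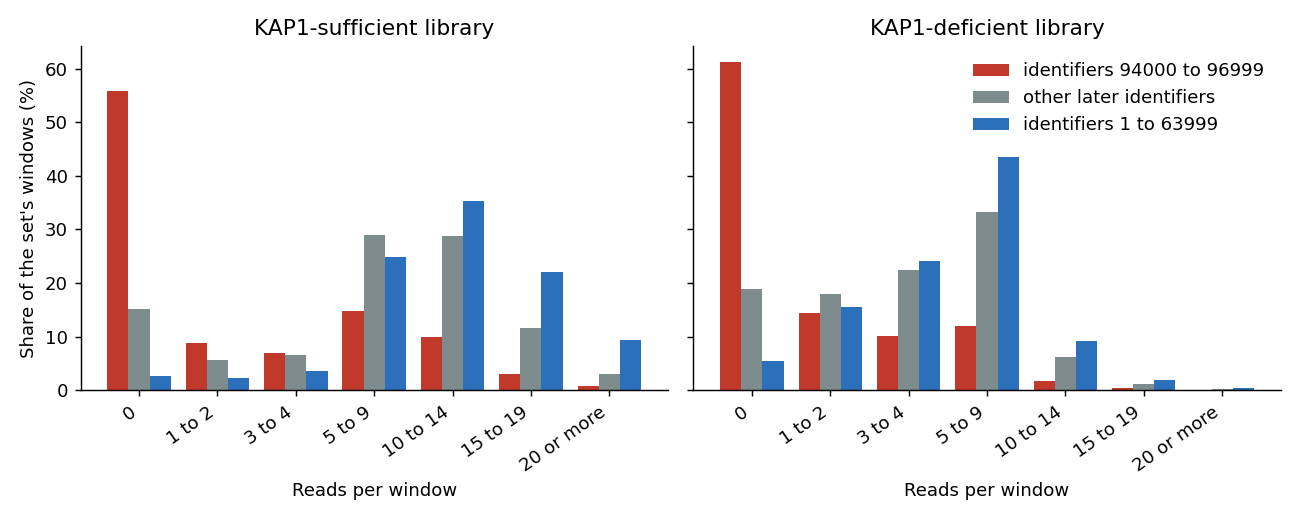
Share of each set's windows (y axis, percent) by class of reads per window (x axis) in the KAP1-sufficient (left) and KAP1-deficient library (right), for the range, the other later identifiers and the early identifiers. Windows at 0 reads make up 55.9% and 61.2% of the range, and in the comparison set 2.62% and 5.41%.

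A single window stood far above the others. The KAP1-sufficient library placed 615 reads in ENSMUSG00000095280 (Poisson interval 567 to 666) and the KAP1-deficient one 408 (369 to 450). It had the most reads of all 51121 windows, and the next window of the range, ENSMUSG00000095464, held 42 over both libraries. ENSMUSG00000095280 alone supplied 7.10% of the KAP1-sufficient and 9.06% of the KAP1-deficient reads of the range. Without it, the mean reads per window of the range were 3.18 (3.12 to 3.25) and 1.62 (1.57 to 1.67). The share of empty windows was 53.8% with or without it.

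The next most-read windows were within the span of ordinary start sites. ENSMUSG00000095464 held 22 KAP1-sufficient and 20 KAP1-deficient reads. ENSMUSG00000096983 held 26 and 12, and ENSMUSG00000095123 held 19 and 16. Over the 9 windows that follow ENSMUSG00000095280, counts ran from 17 to 26 in the KAP1-sufficient library and from 11 to 20 in the KAP1-deficient library. Of the 100 windows with the most reads in the whole table, 1 belonged to the range, ENSMUSG00000095280 itself.

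**Figure D3:**
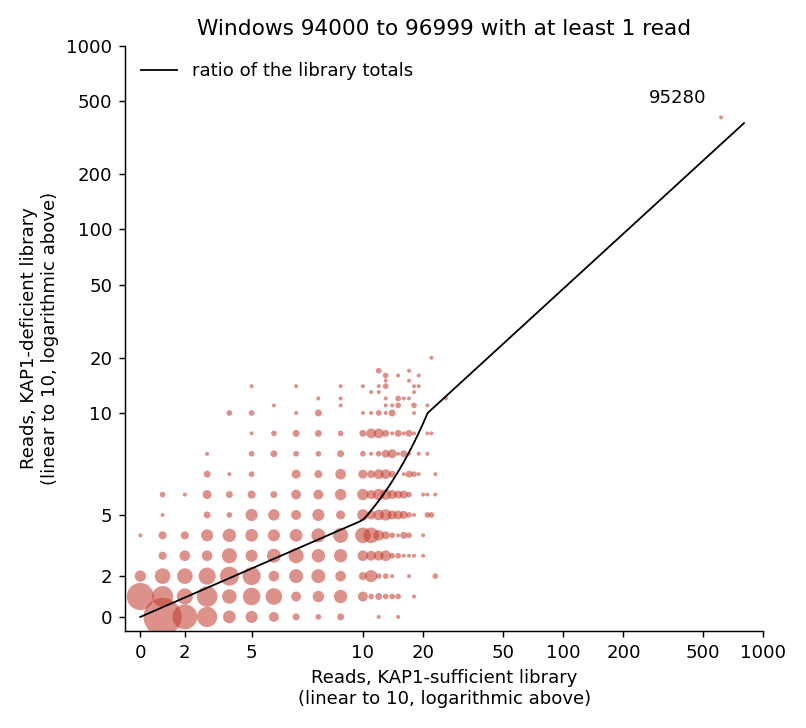
Reads in the KAP1-sufficient (x axis) and the KAP1-deficient library (y axis) of the 1168 windows of the range with at least 1 read. Both axes are linear to 10 reads and logarithmic above, which bends the line drawn at the ratio of the library totals; the area of a dot is proportional to the number of windows at those counts. ENSMUSG00000095280 (labelled by its number) stands apart, and every other window lies at 26 reads or fewer on the x axis and 20 or fewer on the y axis.

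The reads of the range were concentrated in few windows. The 263 most-read windows, 10.4% of the range, held 50% of its reads. In the comparison set it took 33.1% of the windows to hold that share. Both percentages count empty windows, which were 53.8% of the range and 2.34% of the comparison set. ENSMUSG00000095280 is included in the share of the range. Across the 1167 windows with a read, ENSMUSG00000095280 set aside, Pearson's r between the libraries was 0.62 and Spearman's rho 0.67. Across the 17445 windows of the comparison set they were 0.50 and 0.49. Windows are not replicates, and all share the same 2 libraries. The windows of the range lay nearer to 0, with KAP1-sufficient quartiles of 3 and 10 reads against 8 and 16. How this bears on the coefficients was not tested.

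Relative to library totals, the range took a larger share of the KAP1-deficient than of the KAP1-sufficient reads. It held 1.80% of the KAP1-sufficient and 1.97% of the KAP1-deficient reads, so its pooled reads had a KAP1-deficient to KAP1-sufficient ratio of 1.10 (exact binomial interval 1.06 to 1.14). Without ENSMUSG00000095280, whose own ratio was 1.40 (1.23 to 1.59), it was 1.07 (1.03 to 1.11). The early identifiers had a ratio of 0.947 (0.940 to 0.955). The ratio of the range was thus 1.16 times that of the comparison set (1.11 to 1.20), and 1.13 times (1.09 to 1.18) without ENSMUSG00000095280. Scaling to totals sets the ratio over all windows to 1, so a genotype difference in the total amount of the mark is not visible.

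The other windows of late number also lay above the early ones. They had a ratio of 1.04 (1.03 to 1.05). The range stood 1.05 times above them (1.01 to 1.09) with ENSMUSG00000095280 and 1.03 times (0.99 to 1.07) without it. The latter interval holds 1, so no difference from the other later identifiers was detectable at this depth once that window was left out. The identifiers from 99000 to below 102000, with 47.5% of windows empty against 53.8% in the range, had a ratio of 1.01 (0.98 to 1.04).

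The ratio was then set out by reads per window, since the share of KAP1-deficient reads changed with it in every set. Without ENSMUSG00000095280, the ratio of the range was 0.93 (0.79 to 1.10) in the 319 windows with 1 to 4 reads over both libraries and 1.01 (0.92 to 1.12) in the 266 with 5 to 9. It was 1.01 (0.93 to 1.09) in the 247 with 10 to 14 reads and 1.07 (0.99 to 1.16) in the 183 with 15 to 19. In the 139 windows with 20 to 29 reads it was 1.16 (1.08 to 1.25), and in the 13 with 30 or more it was 1.41 (1.16 to 1.72). The interval left out 1 in the 2 classes with the most reads.

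The early identifiers had lower ratios in the same classes, and theirs too was above 1 at the most reads. Theirs were 0.85 (0.75 to 0.95) at 1 to 4 reads, 0.80 (0.76 to 0.83) at 5 to 9, 0.86 (0.84 to 0.88) at 10 to 14, 0.89 (0.88 to 0.91) at 15 to 19. They were 0.96 (0.94 to 0.97) at 20 to 29 and 1.19 (1.17 to 1.22) at 30 or more, where the interval overlaps that of the range. The range was higher than the early identifiers in 6 of 6 classes, with intervals apart in 4. Against the other later identifiers it was higher in 5 of 6 classes, with intervals apart in 0. The other later identifiers had 1.08 (1.07 to 1.10) at 20 to 29 reads and 1.37 (1.34 to 1.40) at 30 or more, so a ratio above 1 in these classes was not particular to the range.

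**Figure D4:**
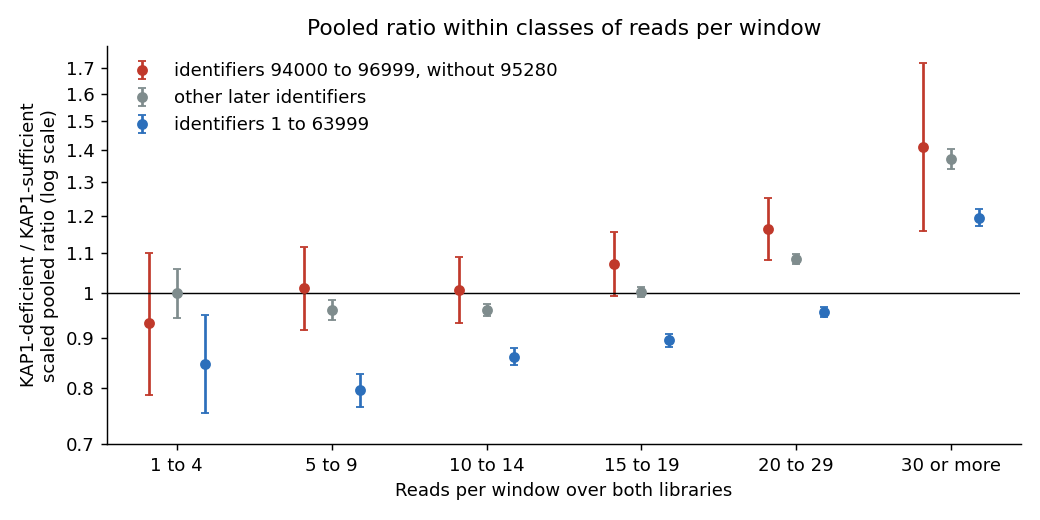
KAP1-deficient to KAP1-sufficient ratio of pooled reads, scaled to library totals (y axis, log scale), by class of reads per window over both libraries (x axis), with exact 95% binomial intervals. The range, ENSMUSG00000095280 left out, lies above the early identifiers in 6 of 6 classes and overlaps the other later identifiers in each.

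Along the range, the ratio of most runs differed from the whole by no more than counting error. Without ENSMUSG00000095280 it was above 1 in 10 of 12 runs of 250 numbers and lay between 0.97 (0.83 to 1.13), for 94000 to 94249, and 1.23 (1.08 to 1.41), for 96250 to 96499. In 11 of 12 runs the interval held the ratio of the whole range, 1.07. In 4 of 12 the interval lay wholly above 1. ENSMUSG00000095280 moved its own run, 95250 to 95499, from 0.99 (0.86 to 1.14) to 1.19 (1.09 to 1.31).

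**Figure D5:**
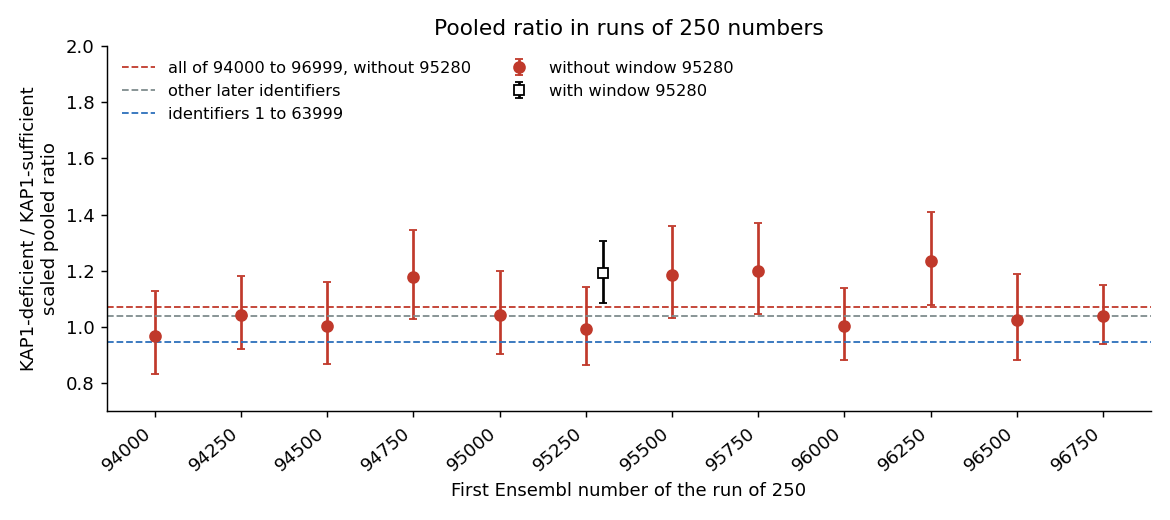
KAP1-deficient to KAP1-sufficient ratio of pooled reads, scaled to library totals (y axis), in the 12 runs of 250 numbers of the range (x axis, first number of the run), with exact 95% binomial intervals. The open square is the run 95250 to 95499 with ENSMUSG00000095280 included, 1.19 against 0.99 without it; dashed lines mark the pooled ratios of the sets, 1.07, 1.04 and 0.947.

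Single windows were compared where both libraries together averaged 5 reads or more, as 583 of the 2527 windows did. A window was called where its scaled ratio, with 2 reads added, was at least 2-fold and its exact interval left out 1. In the range 27 windows (4.63%, interval 3.07 to 6.67) were called higher in the KAP1-deficient library, against 2.49% over all windows. Called lower were 9 (1.54%, 0.71 to 2.91), against 1.81% over all windows. The share called higher was 1.80% (1.59 to 2.02) in the early identifiers and 2.96% (2.73 to 3.20) in the other later identifiers, whose interval meets that of the range. The share called lower was near the background. With the 2-fold size alone, 53 windows (9.09%) were higher and 44 (7.55%) lower, against 5.26% and 8.72% over all windows. The filter takes the total of both libraries, so a window with few KAP1-sufficient reads passes only where its KAP1-deficient count is high. Such windows can add to the higher calls, and 23.1% of the range passed the filter against 84.8% of the early identifiers. Without the filter, 32 of the 1168 windows with a read (2.74%) were called higher, against 2.13% over all windows with a read. Called lower were then 9 (0.771%), against 1.43%.

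Across the 583 windows the median log2 ratio was 0.06, with quartiles of -0.37 and 0.52. It was -0.01 in the other later identifiers, -0.10 in the early identifiers and -0.05 over all windows. The ratio was above 1 in 298 of the 583, or 51.1%, in 49.7% of the other later identifiers and in 42.5% of the early identifiers.

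The calls rested on few reads each. The 27 higher windows held 3 to 15 KAP1-sufficient and 7 to 17 KAP1-deficient reads. The one whose interval lay farthest from 1, ENSMUSG00000094192, held 5 and 14, a ratio of 5.90 (2.01 to 20.9). ENSMUSG00000095594 held 7 and 14, a ratio of 4.21 (1.59 to 12.3). ENSMUSG00000095002 and ENSMUSG00000096949 each held 4 and 10, a ratio of 5.27 (1.52 to 23.0). They are the extremes of 583 windows, and their intervals take no account of that choice. ENSMUSG00000094192, ENSMUSG00000095002 and ENSMUSG00000096949, with 5, 4 and 4 KAP1-sufficient reads, also passed the filter only through their high KAP1-deficient counts.

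The 9 lower windows held 12 to 23 KAP1-sufficient and at most 2 KAP1-deficient reads. ENSMUSG00000094372 held 15 and 0, and the exact interval of its ratio reached up to 0.59. ENSMUSG00000096751 held 12 and 0, with an upper limit of 0.76. ENSMUSG00000095087 held 18 and 1, a ratio of 0.12 (0.0028 to 0.74). ENSMUSG00000095930 and ENSMUSG00000096841 each held 23 and 2, a ratio of 0.18 (0.02 to 0.74). In the other direction, no window of the range without KAP1-sufficient reads held more than the 4 KAP1-deficient reads of ENSMUSG00000095825, which is below the filter for calls and has a lower limit of 1.39. ENSMUSG00000094335 came next with 2.

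ENSMUSG00000095280, the most-read window, was not called. Its interval of 1.23 to 1.59 lay below the 2-fold size. Of the 9 windows next in reads, 8 had a ratio above 1, from a lowest of 0.97 for ENSMUSG00000096983 to 2.11 (1.01 to 4.39) for ENSMUSG00000096238, with 17 reads in each library. The interval of ENSMUSG00000096238 was the one of these 9 that left out 1. All 9 fall in the class of 30 or more reads, where the pooled ratio was above 1 in every set. It was 1.19 in the early identifiers and 1.37 in the other later identifiers.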

How the data were processed

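The authors deposited 1 table of whole-number read counts around start sites, with 1 column per genotype per the file headers; 0 columns were left unused. The submitters' processing notes name Bowtie2 2.2.9 (an aligner), Picard 2.1.1, bedtools 2.26.0 and build mm10. Not given in the sources used here are their roles, the window width and any mapping or duplicate filter. Such filters can empty windows in repeated sequence. Per the labels' protocols, libraries came from sonicated chromatin and a template-switching kit.

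Each library's total over the 51121 windows served for scaling. Intervals are exact (Clopper-Pearson) at 95% for shares and ratios, Poisson for counts, and normal on the log scale for ratios between sets. Thinning used the hypergeometric expectation. No p-value is given, since each genotype has 1 library.

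The range, sets and call rule were chosen with earlier results of these data known. Named windows were ENSMUSG00000095280, the 10 with the most reads, 4 calls per direction by the limit of the interval, and 2 each without reads in 1 library, ties to the lower number. Of the identifiers, 0 matched the RefSeq gene table, so families planned by symbol were not analysed. Alternatives covered scaling, filters, reads added, limits of the range and the comparison set. Python 3.11.15, numpy 2.4.6, scipy 1.17.1, pandas 2.3.3 and matplotlib 3.10.9 were used.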

Additional observations from a re-analysis of the deposited data

How the results depend on the processing

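Of 50 alternatives, 22 left a value within its interval or within 1.5 times its count and 28 moved it. A reversal was defined only for the pooled ratio and its ratio to the comparison set, where 0 alternatives reversed the direction. Reads per window in the range (3.43 and 1.78) were 3.18 and 1.62 without ENSMUSG00000095280, 7.41 and 3.85 over windows with a read, 3.65 and 1.93 without numbers 94000 to 94999, and 3.31 and 1.67 without 95000 to 95999; without the numbers from 96000 on the KAP1-sufficient mean was 3.32. As a percentage of the comparison set (28.6% and 33.1%) they were 26.6% and 30.1% without ENSMUSG00000095280 and, with a set chosen after seeing the data, 40.9% and 43.0% of the other later identifiers. Against numbers below 50000 the KAP1-sufficient value was 27.7%. The empty share (53.8%) was 55.9% in the KAP1-sufficient library, 61.2% in the KAP1-deficient one and 60.8% after thinning. Its distance from the comparison set, 51.4 percentage points, was 39.6 from the other later identifiers and 6.28 from the numbers 99000 to below 102000, both chosen after seeing the data. The pooled ratio (1.10) was 1.16 when scaled to the early identifiers, and its ratio to the comparison set (1.16) was 1.05 against the other later identifiers and 1.03 when ENSMUSG00000095280 was also left out. The 27 higher and 9 lower calls became 2 and 4 with 10 reads added (0.312% and 0.321% over all windows), so lower calls then outnumbered higher ones. Among the 153 windows that averaged 10 reads or more they were 13 and 2 (4.1% and 1.82% over all such windows). With 2-fold alone they were 53 and 44 (5.26% and 8.72% over all windows). The reads added shrink ratios and the filter leaves fewer windows. Scaling by the median of ratios gave 30 higher and 7 lower calls (2.64% and 1.45% over all windows). Depth, at a median of 10 and 4 reads over all windows, limits each single-window value. No paired analysis was possible because the table holds 1 column per genotype.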
